A study of Saccharomyces cerevisiae with 8 samples.

Results

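The genes described here encode 37 nuclear factors of budding yeast that build the cytochrome bc1 complex, cytochrome c oxidase and the ATP synthase or that let mitochondria express the subunits encoded in their own DNA. They were listed by gene symbol and not by a cut-off on measured values, but with earlier results of these data known. All 37 were found among the 6532 entries of the count table. Of these, 36 had enough reads for a test of expression and 33 had enough tailed reads for a test of poly(A) tail length. PAT-seq reads the 3′ ends of mRNAs and some of the adjoining poly(A) tail. It was applied to wild-type BY4741, a MATa haploid laboratory strain carrying his3Δ1, leu2Δ0, met15Δ0 and ura3Δ0 in every group. Log phase cells were taken from liquid medium, and colonies that grew from such cells after plating on solid medium were taken on Day 2, Day 3 and Day 4, with 2 libraries in each of the 4 groups. Liquid against solid medium, colony growth and time differ together between the colonies and Log phase and cannot be told apart. No statement that the 2 libraries of a group came from separate cultures was found in the labels, so each p-value measures no more than the spread between these libraries.

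The libraries held 6203115 to 8441949 counts. MFA1, the gene of the MATa pheromone, had 8873 to 14672 counts per library, and the deleted MET17 (MET15) had 0 in all 8 libraries. LEU2 had 0 to 10 counts and URA3 0 to 8. The assembly and translation factors took 0.147% and 0.145% of all Log phase counts, 0.377% and 0.347% on Day 2, 0.421% and 0.387% on Day 3 and 0.367% and 0.373% on Day 4. All 6 colony libraries therefore lay above both Log phase libraries. In these bulk samples, fewer cells of one kind and less RNA per cell cannot be told apart.

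Respiratory complexes are mosaics. Some of their subunits are translated inside mitochondria, while the other subunits, and every factor described here, come from nuclear genes. Translational activators bind single mitochondrial mRNAs, copper chaperones and heme synthesis enzymes supply the redox cofactors, and chaperones hold subunits until they are joined. Yeast growing on glucose ferments and keeps respiration low, and cells that have used up the glucose respire. Puf3, an RNA-binding protein, is known in this yeast to bind a short element in the 3′ untranslated regions of nuclear mRNAs for mitochondrial proteins. The Hap complex is a transcription factor known to activate many respiratory genes through CCAAT boxes.

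The Puf3-type element TGTANATA, where N is any base, was searched on the sense strand in the 200 bases after the stop codon. It was present in 31 of 37 assembly and translation factors (83.8%), against 833 of 5766 genes searched (14.4%). A second list of 36 other respiratory assembly and expression factors held it in 29 (80.6%), and 5 of 32 structural subunits of the bc1 complex, cytochrome oxidase and the ATP synthase held it (15.6%). Within 100 bases the element was present in 23 of 37 factors (62.2%), 27 of 36 in the second list (75.0%), 4 of 32 structural subunits (12.5%) and 603 of 5766 genes (10.5%). The narrower TGTAAATA is one form of the same element, and its search was not planned. Within 200 bases it was present in 24 of 37 factors (64.9%), 21 of 36 in the second list (58.3%), 1 of 32 structural subunits (3.12%) and 252 of all genes (4.37%). The elements of members from several roles are shown, most of them genes whose levels are given by library below. Each has 10 bases on either side where the window allowed, so that the shared core can be seen beside its flanks. Sequences are from the RefSeq R64 genome, 5′ to 3′ on the coding strand, with the element in capitals.
CBP4 (chrVII:845780-845807, minus strand): atttgtacacTGTAAATAggtttaaaaa
CYC3 (chrI:68673-68700, minus strand): cgtaagtacgTGTAAATAgccaagtaag
COX15 (chrV:455030-455057, plus strand): tacgagaagcTGTAAATAtgaatttctt
COX20 (chrIV:926221-926248, minus strand): cgttttcctaTGTATATAtgcaacattt
PET191 (chrX:497019-497046, plus strand): aaaattggccTGTAAATAtatacataaa
SCO1 (chrII:310544-310564, minus strand): gatTGTAAATAtatgctactt
SCO2 (chrII:290410-290437, plus strand): acagttacatTGTAAATAgaaaaaaata
COX17, first (chrXII:131156-131183, minus strand): aaccatttctTGTATATAtaagaatagg
COX17, second (chrXII:131111-131138, minus strand): atatactaccTGTAAATAtgtgcgatgc
PET494 (chrXIV:707609-707633, plus strand): taaaacaTGTAAATAtgtacctccc
ATP11 (chrXIV:43251-43278, minus strand): taatgacaccTGTAAATAaaatacgtac
CBP2 (chrVIII:23572-23599, minus strand): aaaaattgcaTGTAAATAtatacatacg

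In all there were 37 matches, with 2 in each of 6 genes (SCO1, FMC1, COX23, COX17, COX10 and COX11), 2 to 182 bases after the stop codon and a median of 52. A gene with TGTAAATA was counted under A whatever its other match. By this rule the free position was A in 24 genes, T in 5 and C in 2 (PET100 and SHY1). No match was found for ATP10, ATP22, CBS1, COX19, PET122 and PET54. The letters CCAAT, on either strand from 250 bases before to 50 after the start codon, were distributed differently. They were in 15 of 37 assembly and translation factors (40.5%) and 14 of 36 in the second list (38.9%), against 28 of 32 structural subunits (87.5%) and 2533 of 5766 genes searched (43.9%). A match describes a sequence and is not evidence of binding.

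**Figure D1:**
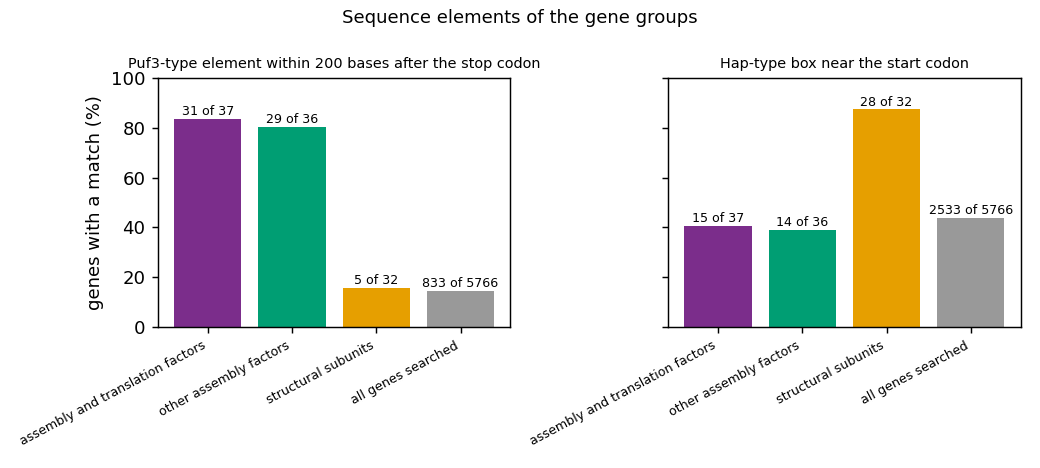
Share of genes (%) with a Puf3-type element within 200 bases after the stop codon (left) and with a Hap-type box, on either strand from 250 bases before to 50 after the start codon (right), in 4 gene sets, with the number of genes above each bar. The assembly and translation factors stand at 83.8% on the left and at 40.5% on the right, and the structural subunits at 15.6% and 87.5%.

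Expression was compared with edgeR, and a gene was called higher or lower at an adjusted p below 0.05 over all 5930 genes tested. Changes are log2 fold changes ± SE and levels are CPM, counts scaled to library size, after TMM normalisation, with 2 libraries per group. On Day 2, 23 of 36 members were higher than in Log phase, where 28.3% of all genes were higher, and 0 were lower (also 0 at an unadjusted p below 0.05 and with DESeq2), where 28.2% of all genes were. Day 3 had 24 higher against a background of 34.5% and again 0 lower by all 3 counts, against 34.4%. Day 4 had 20 higher against 37.2% and 4 lower against 37%. The median change of the members was 0.70 on Day 2, 0.89 on Day 3 and 0.69 on Day 4, while the median over all genes was 0.02, 0.01 and 0.01.

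**Figure D2:**
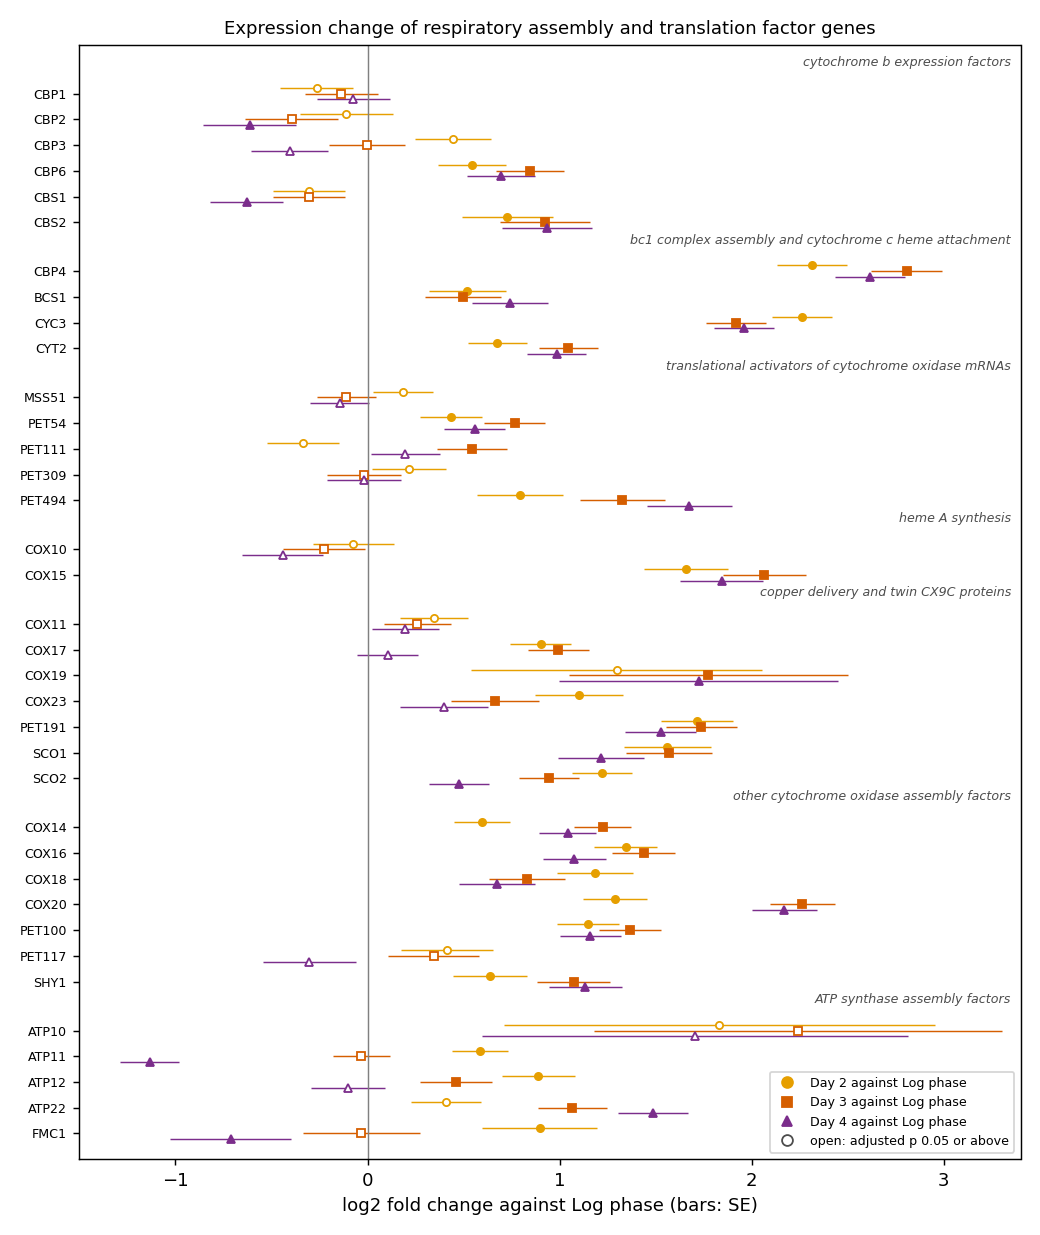
log2 fold change against Log phase of the 36 members tested, grouped by role, for Day 2 (circles), Day 3 (squares) and Day 4 (triangles), with SE from edgeR as bars and 2 libraries per group. Filled symbols were called at adjusted p below 0.05; the factors for cytochrome b lie between −0.63 and 0.93, while CBP4, CYC3, COX15 and COX20 reach 2.07 to 2.81 at their highest.

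The factors for cytochrome b, the mitochondrially encoded subunit of the bc1 complex, differed among themselves. Of 6, the translation and assembly factor CBP6 and the translational activator CBS2 were called higher on all 3 days, CBP6 by 0.54 ± 0.18, 0.85 ± 0.18 and 0.70 ± 0.18 and CBS2 by 0.73 ± 0.24, 0.93 ± 0.23 and 0.93 ± 0.23. On Day 2 the call of CBP6 was lost without Log phase replicate 1, and that of CBS2 without Log phase replicate 2 or Day 2 replicate 2; the Day 3 call of CBS2 was lost without Log phase replicate 2 as well. CBS1, the second translational activator, had 48.8 and 46.5 CPM in Log phase, 34.6 and 42.3 on Day 2, 39.9 and 37.3 on Day 3 and 30.3 and 31.4 on Day 4. Its 6 colony values all lay below both Log phase values, and the change was called on Day 4 (−0.63 ± 0.19, edgeR adjusted p = 0.00464). CBP2, needed to splice an intron of the cytochrome b transcript, had 36.8 and 31.9 CPM in Log phase, 32.9 and 30.8 on Day 2, 18.4 and 33.8 on Day 3 and 19.9 and 25.0 on Day 4. It was called on Day 4 (−0.61 ± 0.24, edgeR adjusted p = 0.0272), although its Day 3 libraries stood apart from each other. The 2 calls on Day 4 were lost when libraries were scaled to total counts, where CBS1 had −0.19 and CBP2 −0.17, and when tailed reads were counted, where CBS1 had −0.47 (edgeR adjusted p = 0.0706) and CBP2 0.02. The CBP2 call was also lost without Log phase replicate 1 or Day 4 replicate 1. CBP1, which stabilises the cytochrome b mRNA, stayed between 34.8 and 52.7 CPM, and CBP3, the partner of CBP6, between 26.1 and 60.5, and neither was called in any comparison with all 8 libraries. The Day 2 change of CBP3, 0.45 ± 0.20, was 1.08 with tailed reads (edgeR adjusted p = 0.00183) and 0.83 with total counts (edgeR adjusted p = 0.00152), both of them calls. Leaving out 1 library gave CBP1 a lower call on Day 2 (−0.54) and CBP3 a higher one on Day 2 (0.63) and lower ones on Day 4 (−0.41 and −0.60) and in Day 3 against Day 2 (−0.61).

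All 4 genes for later bc1 assembly and for heme attachment were called higher than in Log phase on every day, BCS1 the least firmly. CBP4, an assembly factor that stabilises newly made cytochrome b, had 19.7 and 19.9 CPM in Log phase, 111 and 86.5 on Day 2, 155 and 122 on Day 3 and 118 and 125 on Day 4. Every colony library lay far above Log phase, and the change was the largest of the called members on each day (2.31 ± 0.18, 2.81 ± 0.18 and 2.62 ± 0.18). CYC3, the lyase that attaches heme to cytochrome c, had 121 and 138 CPM in Log phase, 692 and 554 on Day 2, 506 and 475 on Day 3 and 527 and 484 on Day 4. Its change was 2.26 ± 0.16, 1.92 ± 0.16 and 1.96 ± 0.16, with an edgeR adjusted p of 4.13e-11 on Day 2. CYT2, the lyase for cytochrome c1, rose by 0.68 ± 0.15, 1.05 ± 0.15 and 0.98 ± 0.15. BCS1, which inserts the Rieske iron-sulfur protein, rose by 0.52 ± 0.20, 0.50 ± 0.20 and 0.74 ± 0.20, and its Day 2 call was lost with DESeq2 (adjusted p = 0.0519), in a fit of the 2 groups alone (edgeR adjusted p = 0.0558) and without either Log phase library or Day 2 replicate 2. Its Day 3 call was lost without any 1 of the 4 libraries compared.

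**Figure D3:**
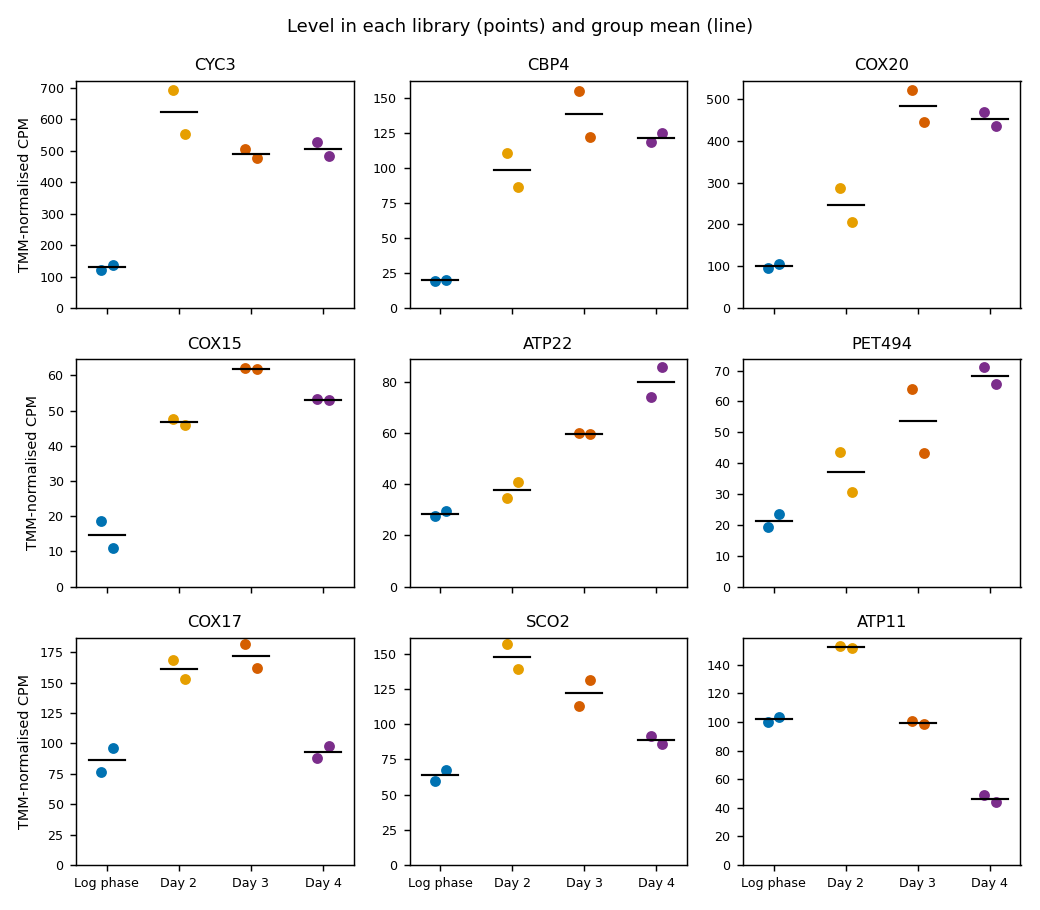
TMM-normalised CPM of 9 members in Log phase, Day 2, Day 3 and Day 4 (points: the 2 libraries of a group; line: their mean; each axis starts at 0). CYC3, CBP4, COX20 and COX15 are higher in all 6 colony libraries than in Log phase, COX17 on Day 4 is back at 87.8 and 97.7 CPM, and ATP11 falls to 48.9 and 43.9 CPM on Day 4.

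Among the translational activators of the mitochondrial mRNAs for cytochrome oxidase, 2 of the 5 tested were higher on Day 2, 3 on Day 3 and 2 on Day 4. PET494, an activator of COX3, had 19.4 and 23.4 CPM in Log phase, 43.7 and 30.7 on Day 2, 63.9 and 43.4 on Day 3 and 71.1 and 65.6 on Day 4. All 6 colony libraries exceeded Log phase, by 0.79 ± 0.22, 1.33 ± 0.22 and 1.68 ± 0.22 (edgeR adjusted p = 3.72e-07 on Day 4), although the Day 2 call was lost without Log phase replicate 1 or Day 2 replicate 1. PET54, which acts on the same mRNA, was higher by 0.44 ± 0.16, 0.77 ± 0.16 and 0.56 ± 0.16, and its Day 2 call was lost without either Log phase library or Day 2 replicate 1. PET111, the activator of COX2, had −0.34 ± 0.19 on Day 2, which did not pass the test. Against Log phase it was called on Day 3 alone (0.54 ± 0.18), a call lost without Log phase replicate 1 or Day 3 replicate 2. Counts of PET111 were 0.78 times its reads in the gene table. Its tailed reads were 176 and 195 against 275 and 268 counts in Log phase. On Day 2 they were 157 and 265 against 200 and 287, and on Day 3 261 and 446 against 464 and 582. The direction of its Day 2 change and the size of its change from Day 2 to Day 3 are therefore uncertain. PET309, the activator of COX1, had 32.9 to 46.3 CPM and was called in none of the 5 comparisons. MSS51, which couples COX1 translation to assembly, had 120 to 165 CPM and was not called either. Most of its counts cannot be placed, since the count table gives 12.1 times the reads of the gene table. The reason for this excess was not tested. PET122, the other activator of COX3, had 11 counts in all libraries together and was not tested.

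Heme A, the cofactor of cytochrome oxidase, is made in sequence by COX10 and COX15, and their mRNAs differed. COX15 had 18.5 and 10.9 CPM in Log phase, 47.8 and 45.8 on Day 2, 62.0 and 61.9 on Day 3 and 53.3 and 53.0 on Day 4. It rose by 1.66 ± 0.22, 2.07 ± 0.22 and 1.84 ± 0.22 (edgeR adjusted p = 1.14e-08 on Day 3). The counts of COX15 were 0.67 times its reads in the gene table, and the shortfall differed between groups. In Log phase its tailed reads (158 and 94) exceeded its counts (129 and 69), as on Day 2 (446 and 499 against 306 and 391). They did not on Day 3 (440 and 446 against 526 and 558) or Day 4 (322 and 378 against 461 and 477). The size of its rise is therefore uncertain. COX10 had 22.2 to 32.3 CPM over all 8 libraries and changed by −0.07 ± 0.21, −0.23 ± 0.21 and −0.44 ± 0.21, none of them called.

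Of 7 genes for copper delivery and for twin-cysteine proteins, 5 were higher on Day 2, 6 on Day 3 and 4 on Day 4. COX17, which hands copper to SCO1 and COX11, had 76.7 and 96.0 CPM in Log phase, 169 and 154 on Day 2, 182 and 162 on Day 3 and 87.8 and 97.7 on Day 4. The Day 4 libraries overlapped Log phase, and the change was 0.90 ± 0.16 on Day 2, 0.99 ± 0.16 on Day 3 and 0.10 ± 0.16 on Day 4, the last called with total counts (0.55). SCO1, which passes copper to the Cox2 subunit, had 21.1 and 18.7 CPM in Log phase, 75.1 and 43.0 on Day 2, 61.2 and 57.0 on Day 3 and 45.6 and 46.8 on Day 4. Its Day 2 libraries differed widely, yet all 6 colony values exceeded Log phase (1.56 ± 0.23, 1.57 ± 0.22 and 1.21 ± 0.23). SCO2, a homologue of SCO1, had 59.9 and 67.2 CPM in Log phase, 157 and 139 on Day 2, 113 and 131 on Day 3 and 91.3 and 85.6 on Day 4. The group means of SCO2 stood highest on Day 2, and its changes against Log phase were 1.22 ± 0.16, 0.94 ± 0.16 and 0.48 ± 0.16, the last a call lost without Log phase replicate 1 or Day 4 replicate 1. COX11, which delivers copper to the Cox1 subunit, lay between 61.3 and 88.4 CPM and was not called (0.35 ± 0.18 on Day 2). With total counts it was called higher on all 3 days (0.73, 0.66 and 0.64), and with tailed reads higher on Day 2 (0.81) and lower in Day 3 against Day 2 (−0.72). Without Day 3 replicate 2 it was called higher on Day 3 (0.48). Of the small twin-cysteine proteins, PET191 had 20.8 and 21.7 CPM in Log phase, 77.7 and 62.2 on Day 2, 74.7 and 67.0 on Day 3 and 57.8 and 64.7 on Day 4 (1.72 ± 0.19, 1.74 ± 0.19 and 1.53 ± 0.19). COX23 was called higher on Day 2 (1.10 ± 0.23) and Day 3 (0.66 ± 0.23), the Day 3 call being lost without either Log phase library or Day 3 replicate 2. COX19 had 0.431 and 1.42 CPM in Log phase, 2.97 and 1.64 on Day 2, 3.77 and 2.55 on Day 3 and 2.20 and 3.89 on Day 4. Its calls on Day 3 and Day 4 (1.78 ± 0.73 and 1.73 ± 0.73) rest on 154 counts in all, 0.19 times the reads of the gene table, and were lost without Log phase replicate 1.

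Of 7 other assembly factors of cytochrome oxidase, 6 were higher on each day. COX20, a chaperone of newly made Cox2, had 95.5 and 105 CPM in Log phase, 287 and 205 on Day 2, 521 and 444 on Day 3 and 469 and 435 on Day 4. It climbed further after Day 2 (1.29 ± 0.17, then 2.26 ± 0.17 and 2.17 ± 0.17). COX16 rose by 1.34 ± 0.16, 1.44 ± 0.16 and 1.08 ± 0.16, and PET100 by 1.15 ± 0.16, 1.37 ± 0.16 and 1.16 ± 0.16. COX14, a partner of newly made Cox1, rose by 0.60 ± 0.15, 1.22 ± 0.15 and 1.04 ± 0.15, and SHY1, the yeast homologue of human SURF1, by 0.64 ± 0.19, 1.07 ± 0.19 and 1.13 ± 0.19. COX18, which helps export a domain of Cox2, rose by 1.18 ± 0.20, 0.83 ± 0.20 and 0.68 ± 0.20. All 3 calls were lost when tailed reads were counted in place of all reads (0.23, 0.44 and 0.22). Counts of COX18 were 0.75 times its reads in the gene table. Its tailed reads were 147 and 131 against 192 and 131 counts in Log phase, but 197 and 160 against 355 and 466 on Day 2. The size of its rise is therefore uncertain. The Day 2 call of SHY1 and the Day 4 call of COX18 were lost without Log phase replicate 2. PET117 was the exception, between 11.7 and 24.5 CPM and not called against Log phase.

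The ATP synthase factors moved in different directions, with 3, 2 and 1 of 5 higher on Day 2, Day 3 and Day 4 and 2 lower on Day 4. ATP11 and ATP12 are chaperones of the catalytic head, for its beta and its alpha subunit. ATP11 had 100 and 103 CPM in Log phase, 154 and 152 on Day 2, 101 and 98.8 on Day 3 and 48.9 and 43.9 on Day 4. It was higher on Day 2 (0.59 ± 0.15), not called on Day 3 (−0.03 ± 0.15, but 0.37 with total counts) and lower on Day 4 (−1.13 ± 0.15, edgeR adjusted p = 4.74e-07). ATP12 rose on Day 2 (0.89 ± 0.19) and Day 3 (0.46 ± 0.19) and was not called on Day 4 (−0.10 ± 0.19); the Day 3 call was lost without any 1 of the 4 libraries compared. FMC1, which assists ATP12 at high temperature, had 12.4 and 14.1 CPM in Log phase, 33.6 and 16.0 on Day 2, 12.4 and 13.4 on Day 3 and 8.09 and 8.01 on Day 4. It was called higher on Day 2 (0.90 ± 0.30), where the libraries differed widely and the call was lost without Day 2 replicate 1 (0.29). On Day 4 it was called lower (−0.71 ± 0.32). The Day 4 call was lost with DESeq2 (adjusted p = 0.0752), with total counts (−0.27) and without any 1 Log phase, Day 3 or Day 4 library. ATP22, which activates translation of the mitochondrial ATP6 mRNA, had 27.4 and 29.7 CPM in Log phase, 34.6 and 41.1 on Day 2, 60.0 and 59.7 on Day 3 and 74.2 and 86.1 on Day 4. Its libraries did not overlap between any 2 groups, and it was called on Day 3 (1.07 ± 0.18) and Day 4 (1.49 ± 0.18). ATP10, which acts on the Atp6 subunit, had 64 counts in all and was not called.

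Between the days, Day 3 against Day 2 gave 7 of 36 members higher and 2 lower, where 24.2% and 25.2% of all genes were, and a member median of 0.06. COX20 (0.97 ± 0.16), PET111 (0.88 ± 0.18), ATP22 (0.66 ± 0.18), COX14 (0.63 ± 0.15), PET494 (0.53 ± 0.21), CBP4 (0.49 ± 0.16) and CYT2 (0.37 ± 0.15) were higher, and FMC1 (−0.93 ± 0.29) and ATP11 (−0.62 ± 0.15) lower. The calls of CBP4, CYT2, PET494 and FMC1 were lost without Day 3 replicate 1, among other libraries. Day 4 against Day 3 gave 0 higher (1 at an unadjusted p below 0.05, 0 with DESeq2), where 11.8% of all genes were, and 5 lower, where 14.6% were. The 5 were ATP11 (−1.10 ± 0.15), COX17 (−0.89 ± 0.16), PET117 (−0.65 ± 0.24), ATP12 (−0.56 ± 0.19) and SCO2 (−0.47 ± 0.15). The calls of PET117, ATP12 and SCO2 were lost without Day 3 replicate 2 or Day 4 replicate 2, among other libraries. That of PET117 was also lost with DESeq2 (adjusted p = 0.0687), total counts, tailed reads and the replicate block, and that of ATP12 with tailed reads. Of the 36 members tested, the group mean was highest in Log phase for 4 genes, in Day 2 colonies for 12, in Day 3 colonies for 15 and in Day 4 colonies for 5. The same count was not made over all genes, and it includes members called in no comparison, such as PET309 and CBP1. It therefore does not show a peak particular to these genes.

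The structural subunits that these factors assemble had larger median changes. Their 33 genes had 30 higher on Day 2, 33 on Day 3 and 33 on Day 4 against Log phase, with medians of 1.27, 2.20 and 2.10, beside the factors' 0.70, 0.89 and 0.69. In Day 3 against Day 2 their median was 1.26, with 31 of 33 higher, beside 0.06 and 7 of 36 for the factors. COX26, a small protein bound to cytochrome oxidase, changed by 2.68 ± 0.16 on Day 2 and 6.16 ± 0.19 on Day 3, and the subunit genes COX7 by 1.64 ± 0.15 and 4.09 ± 0.16, QCR9 by 2.38 ± 0.20 and 4.26 ± 0.20, and COX9 by 1.77 ± 0.15 and 3.26 ± 0.16. The 36 other assembly and expression factors had medians of 0.53, 0.68 and 0.38 against Log phase, with 19, 24 and 17 higher and 4, 2 and 3 lower, and 0.15 in Day 3 against Day 2. Those with the smallest p on Day 3 were SDH6 (2.67 ± 0.18) and SDH5 (1.60 ± 0.16), assembly factors of succinate dehydrogenase, NCA3 (2.27 ± 0.17) and COA2 (1.84 ± 0.16), a cytochrome oxidase assembly factor. Comparisons against Log phase share the same 2 Log phase libraries, and the difference between the lists was not tested.

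**Figure D4:**
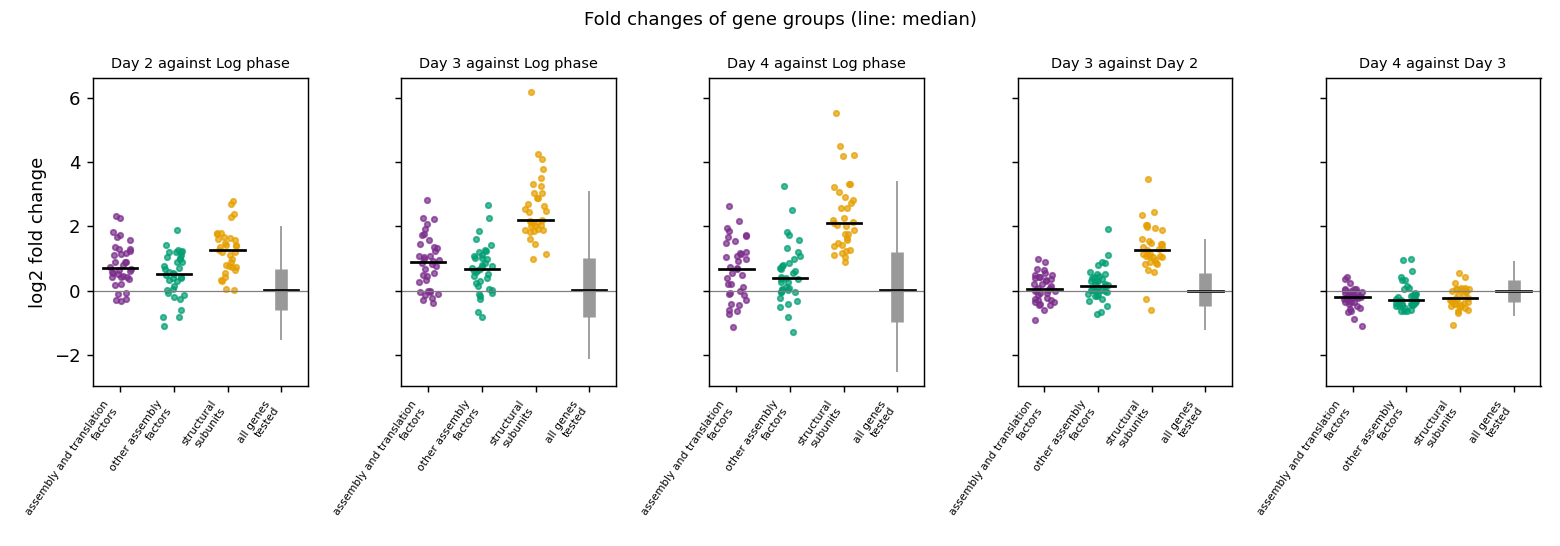
log2 fold change of each gene (points) in the assembly and translation factors, other assembly factors and structural subunits, and of all genes tested (thick bar: interquartile range; thin line: 5th to 95th percentile), in the 5 comparisons; black lines are medians. In Day 3 against Day 2 the median is 0.06 for the assembly and translation factors and 1.26 for the structural subunits.

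Genes with the Puf3-type element outside the members had a median change of 0.19 on Day 2 against Log phase, 0.06 on Day 3 and −0.09 on Day 4. Of 798 tested, 277 were higher and 169 lower on Day 2, 283 and 242 on Day 3, and 256 and 310 on Day 4. Members with the element had medians of 0.73, 0.85 and 0.68. Genes without the element had −0.02, −0.05 and −0.03, and of 4718 tested, 1309 were higher and 1427 lower on Day 2, 1605 and 1734 on Day 3, and 1760 and 1810 on Day 4. The 5 tested members without it had 0.44, 1.07 and 1.49, but these include ATP10 and COX19, whose reads are few and of uncertain assignment; the other 3 (PET54, ATP22 and CBS1) had 0.41, 0.77 and 0.56, so that on Day 3 and Day 4 the order relative to members with the element turned.

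The members' median tail was close to that of genes with the element and to that of genes without it in every group. The median tail of the 33 members tested was 19.6 nt for Log phase, 20.6 for Day 2, 18.2 for Day 3 and 17.9 for Day 4, the median of the 785 genes with the element was 19.6, 20.8, 18.6 and 18.3 nt, and that of the 4267 genes without it was 19.45, 20.47, 18.25 and 18.06 nt. By limma, 1 member was longer on Day 2 than in Log phase, where 1.1% of 5388 genes were, and 0 shorter, where 0.0928% were. On Day 3, 1 was shorter, where 2.02% were, and 0 longer, where 0.223% were. On Day 4, 6 were shorter, where 8.61% were, and 0 longer, where 1.19% were. Day 3 against Day 2 gave 9 shorter, where 21.8% were, and 0 longer, where 0.241% were, and Day 4 against Day 3 gave 0 calls among members and 0 among all genes. At an unadjusted p below 0.05 in either direction, 10 of 33 members passed on Day 2, where 22.7% of all genes did, 7 on Day 3 against 21.7% and 14 on Day 4 against 28.9%, 15 in Day 3 against Day 2 beside 40.6% and 6 in Day 4 against Day 3 beside 8.15%. The median change of the members was 0.84 nt on Day 2, −1.26 on Day 3 and −1.72 on Day 4 against Log phase, beside 0.96, −0.97 and −1.16 nt over all genes.

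COX15 had the longest mean tails of the tested members in Log phase, 25.3 and 26.3 nt, and 22.9 and 24.1 on Day 2, 21.2 and 20.8 on Day 3 and 20.7 and 21.4 on Day 4. Its tails were shorter on Day 3 (−4.75 ± 0.87 nt, limma adjusted p = 0.0416) and Day 4 (−4.72 ± 0.87 nt, limma adjusted p = 0.0184), the days on which its CPM was highest. CBP6 had the shortest in Log phase, with 12.6 and 12.7 nt, then 16.7 and 15.8 on Day 2, 13.1 and 12.7 on Day 3 and 12.4 and 11.8 on Day 4. Only its Day 2 libraries stood apart (3.62 ± 0.60 nt, limma adjusted p = 0.046). COX16 had 20.6 and 21.0 nt in Log phase, 23.2 and 23.3 on Day 2, 17.6 and 17.7 on Day 3 and 16.6 and 16.9 on Day 4, and was shorter on Day 4 (−4.02 ± 0.73 nt). CBP1 had 17.0 and 16.6 nt on Day 4, against 22.6 and 19.4 in Log phase (−4.19 ± 1.08 nt), with no change in its level called. COX18 had 17.6 and 16.1 nt on Day 4, against 20.9 and 20.3 in Log phase (−3.77 ± 0.96 nt), and PET494 (−3.74 ± 0.86 nt) and SHY1 (−3.73 ± 0.91 nt) were shorter on Day 4 too. Among the 9 members called shorter in Day 3 against Day 2, PET494 (−6.37 ± 0.79 nt) and COX16 (−5.60 ± 0.73 nt) had the largest differences. When each library's tails were taken relative to the median of that library, none of these calls among members remained, although part of each difference did: PET494 had −4.21 nt in Day 3 against Day 2 (limma adjusted p = 0.0598), COX15 −3.60 nt on Day 3 and −3.31 nt on Day 4, COX16 −2.62 nt on Day 4 and CBP6 2.60 nt on Day 2. Against Log phase, the Day 2 call was lost without any 1 library, the Day 3 call of COX15 without any 1 of the 6 Log phase, Day 3 and Day 4 libraries (limma adjusted p = 0.0646 to 0.194), and the Day 4 calls numbered 0 without Log phase replicate 1 or either Day 4 library. COX17 had 20.6 to 24.3 nt, SCO1 13.4 to 17.2 nt and SCO2 17.6 to 23.4 nt over the 8 libraries, with no call for any of them.

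**Figure D5:**
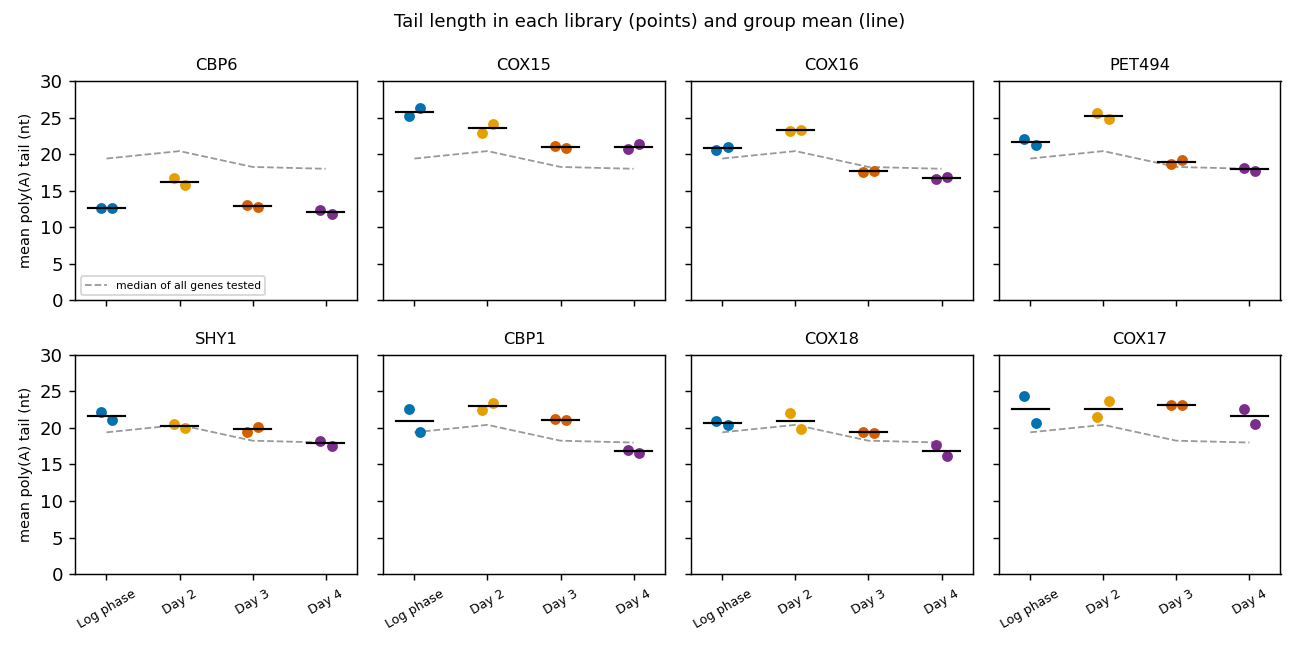
Mean poly(A) tail length (nt) of 8 members in Log phase, Day 2, Day 3 and Day 4 (points: libraries; solid line: group mean; dashed line: mean of the 2 library medians over all genes tested). COX16 lies at 16.6 and 16.9 nt on Day 4, against 23.2 and 23.3 nt on Day 2, and the dashed line moves the same way.

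Across the 33 members, Spearman's rho between the change in level and the change in tail length was −0.38 on Day 2, −0.16 on Day 3 and −0.15 on Day 4 against Log phase, beside −0.21, −0.25 and −0.21 over 5156 genes; the values share libraries and the members are not independent replicates.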

How the data were processed

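Per the labels' protocols, PAT-seq libraries were read on a SOLiD sequencer to 75 bases. The aligner, genome build and definition of a tailed read were not given in the sources used here. The authors deposited gene-wise read counts, counts of tailed reads and mean tail lengths, a score in nt. Their deposited gene table gives coordinates, summed read counts and the fraction of tailed reads. Tailed reads were 2765040 to 3782771 per library. A floor of 3 counts was used for description and entered no filter or test. It covers counting error only, while each SE also reflects the spread between libraries. COX19 had 3 counts in Log phase replicate 1, and ATP10 had 2 in each Log phase library. The members and lists were chosen with earlier results of these data known.

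Members were matched by symbol and joined by systematic name. Expression was tested with edgeR 4.0.16 (TMM, filterByExpr, quasi-likelihood F test over all 8 libraries; the biological coefficient of variation was 0.128) and tail length with limma 3.58.1 (a minimum of 10 tailed reads per library, tailed reads capped at 100 as weights, trended empirical Bayes), with Benjamini-Hochberg adjustment over all genes; both were tested on simulated data. For edgeR, the SE was obtained by dividing the size of the log2 fold change by the root of F; for limma it is the moderated one. TMM factors were 1.03 to 1.10 in colonies and 0.825 and 0.794 in Log phase. Assignment was called uncertain for MSS51, PET122, COX19 and ATP10, whose count was under 0.5 or over 2 times the gene table's reads or under 100 in all. Named genes were, per comparison against Log phase, the 5 called members with the largest change in each direction, the 4 with the largest tail change, and every member never called, with up to 4 genes of other lists by p on Day 3; members described beside them complete each role. All 37 members lie at identical positions in the RefSeq R64 annotation, as do 5772 of the 5813 entries shared with it (99.3%). The start codon window was read from the genome. Libraries with the same replicate number did not deviate together (r −0.0349 to 0.00554), so no block was used. Alternatives were DESeq2 1.42.0, other scaling, filters, weights, tailed reads, other windows, a replicate block and leaving out each library. R 4.3.3, Python 3.11.15, pandas 2.3.3 and matplotlib 3.10.9 were used.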

Additional observations from a re-analysis of the deposited data

How the results depend on the processing

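Counts of called members in this section are given without the share of all genes called under the same setting, so they cannot be set against a background. Scaling to total counts raised the all-gene median log2 fold change of the colonies by 0.38 (Day 2), 0.40 (Day 3) and 0.44 (Day 4). Members were then 29, 28 and 24 higher on these days, and 1 was lower on Day 4, where tailed reads gave 2. ATP11 on Day 3 then had 0.37 (edgeR adjusted p = 0.0305) in place of −0.03, and with tailed reads CBP2 on Day 4 had 0.018 (edgeR adjusted p = 0.962). Total counts also called PET309, MSS51, PET117 and ATP22 higher on Day 2, PET117 and ATP10 on Day 3, and PET111 and COX23 on Day 4; tailed reads lost the calls of PET494 and FMC1 on Day 2 and of COX23 and ATP12 on Day 3. Fitting only the 2 groups compared gave 4 higher in Day 3 against Day 2 and 1 (ATP22) in Day 4 against Day 3. Tail calls were fewer: longer on Day 2 in 0 members with no weights, on a log2 scale, centred on the library median or with the replicate block; shorter on Day 3 in 0 with no weights, centred or with the block, and in 2 with at least 30 tailed reads; centring gave 0 on Day 4 and 0 in Day 3 against Day 2. The cause was not tested. With the replicate block, members higher and lower were 23 and 0, 24 and 0, 20 and 4, 6 and 2, and 0 and 4 in the 5 comparisons. A narrower form of the Puf3-type element, with a C 2 bases before TGTAAATA, was added after seeing the data. It was in 12 members (32.4%) and in 11 of the 36 other assembly and expression factors (30.6%), against 1.98% of all genes.

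Leaving out 1 library gave 18 to 23 higher and 0 to 1 lower on Day 2, 19 to 24 and 0 to 1 on Day 3, 18 to 20 and 2 to 6 on Day 4, 4 to 8 and 1 to 4 in Day 3 against Day 2, and 0 to 1 and 2 to 7 in Day 4 against Day 3. For tails it gave 0 to 0 longer on Day 2, 0 to 1 shorter on Day 3, 0 to 1 longer and 0 to 5 shorter on Day 4, and 2 to 7 shorter in Day 3 against Day 2. Without Day 3 replicate 1, Day 3 against Day 2 had 4 higher and 2 with shorter tails; without Day 3 replicate 2 or Day 4 replicate 2, Day 4 against Day 3 had 2 lower; without Log phase replicate 1 or Day 4 replicate 1, Day 4 had 2 lower and 0 with shorter tails. A group left with 1 library was assumed to vary like the others. With 2 libraries per group and tailed reads as low as 11 (FMC1), small tail changes cannot be detected, and a missing call does not show that a gene stayed the same.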
